A study of Rattus with 4 samples.

Results

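Antisense peaks that lie opposite a sense peak were described in peak lists of RNA that came down with RBM25 in H9C2. H9C2 is a rat myoblast line that was established from embryonic heart tissue. The 4 samples of the series are 2 immunoprecipitates (IP) of RBM25 and 2 inputs, all from cells cross-linked with ultraviolet light at 400 mJ/cm2. The 2 deposited peak lists, 1 for each IP by their names, were analysed, and the inputs were not used here. The series names RBM25 overexpression for its expression profiling, and the labels of the IPs do not say whether those cells carried it. Separate cultures are not named for the replicates, so the spread between them may be technical. Members were chosen by the strand, position and annotation of the called peaks of a list: a member is a peak annotated as antisense to a gene that shares at least 1 bin of 50 nt with a peak of the opposite strand in the same list. By this rule 583 of 2696 peaks were members in replicate 1 (21.6%) and 2685 of 8108 in replicate 2 (33.1%), 3268 in all. The opposite peak, called the partner here, was annotated to the sense strand of a gene at every pair; 0 partners in either list were intergenic or antisense themselves. How often peaks pair within a list, and how even their strands are, follows in part from this rule and is given without a test.

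RBM25 is a splicing factor that associates with U1 snRNP, the particle that recognises the 5' splice site, and with exonic splicing enhancers. An RNA-binding protein of this kind is known to act on pre-mRNA, so the sense strand of a gene is where its contacts are usually sought. An antisense peak is one called on the strand opposite the annotated gene. How peaks were called from the read pairs is not given, and whether antisense peaks hold antisense RNA was not tested. Such a peak carries the name of the gene it lies across, and the same position can hold a peak on each strand. The height of a peak is the authors' tag number: whole in peaks of 51 nt, which cover 1 bin, and the mean over bins in longer peaks. No peak was called under 19 tags in replicate 1 or under 20 tags in replicate 2. Library depth is unknown, so tags are compared between the strands of a list and not read as a change between lists.

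Pairing took in a minority of antisense peaks in replicate 1 and most of them in replicate 2. Of the 1390 antisense peaks of replicate 1, 583 were paired (41.9%; 95% Wilson interval 39.4 to 44.6), and of the 3994 of replicate 2, 2685 were (67.2%; 65.8 to 68.7). Seen from the other strand, 584 of 1200 sense peaks of replicate 1 (48.7%) and 2682 of 3887 of replicate 2 (69.0%) were partners. Intervals cover counting error over the peaks of a list only. A few long peaks met several peaks of the other strand, which gave 584 pairs in replicate 1 and 2691 in replicate 2. Start and end were identical on both strands in 538 pairs of replicate 1 (92.1%) and 2492 pairs of replicate 2 (92.6%). Every pair with unequal ends, 46 in replicate 1 and 199 in replicate 2, held a peak of several bins. Just inside the rule, 37 pairs of unequal extent in replicate 1 and 175 in replicate 2 shared a single bin, with medians of 31 and 30 tags on the antisense strand. Just outside it, 89 antisense peaks of replicate 1 and 143 of replicate 2 had an opposite peak within 50 nt but no shared bin, with medians of 25 and 24 tags.

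The strands of a pair carried similar tag numbers. In replicate 1 the median was 27 tags for paired antisense peaks (19 to 138.7) and 25 for their partners (19 to 217.5). In replicate 2 it was 29 tags for paired antisense peaks (20 to 226) and 27 for their partners (20 to 261). The antisense share of the tags of a pair had a median of 51.2% in replicate 1 (interval of the median 50.6 to 51.6) and 51.1% in replicate 2 (50.98 to 51.16). The share lay from 40 to 60% in 518 of 584 pairs of replicate 1 and in 2524 of 2691 pairs of replicate 2. Both strands had to reach the lowest called height, so a balance near equality is partly set by the rule, and it is given as a description. Where the ends of a pair differ, the tags of its strands are means over unequal lengths.

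Among pairs of 51-nt peaks, the strands differed by a median of 3 tags in each list. Tags were equal in 54 of 531 such pairs in replicate 1 (10.2%) and in 269 of 2391 in replicate 2 (11.3%). The antisense strand was the higher in 287 pairs of replicate 1 and the sense strand in 190; in replicate 2 the antisense strand was the higher in 1369 pairs and the sense strand in 753. The exact 95% binomial interval of the antisense share held 50% in 504 of the 531 pairs of replicate 1 (94.9%) and in 2326 of the 2391 of replicate 2 (97.3%). With both strands above the lowest called height and counts this low, the rule leaves little room for other intervals, so these shares say nothing of how even the strands are. Of the pairs whose interval did not hold 50%, 19 of 27 in replicate 1 and 41 of 65 in replicate 2 leaned to the antisense strand. In replicate 1 the lean moved with the genome strand: the median antisense share was 51.9% in the 296 pairs with the antisense peak on the plus strand and 50% in the 288 with it on the minus strand. The lowest called height in that list was 20 tags on the plus strand and 19 on the minus strand, and its part in the lean was not tested. In replicate 2 the medians were 51.2% on the plus strand and 50.98% on the minus strand, and the lowest height was 20 tags on both.

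**Figure D1:**
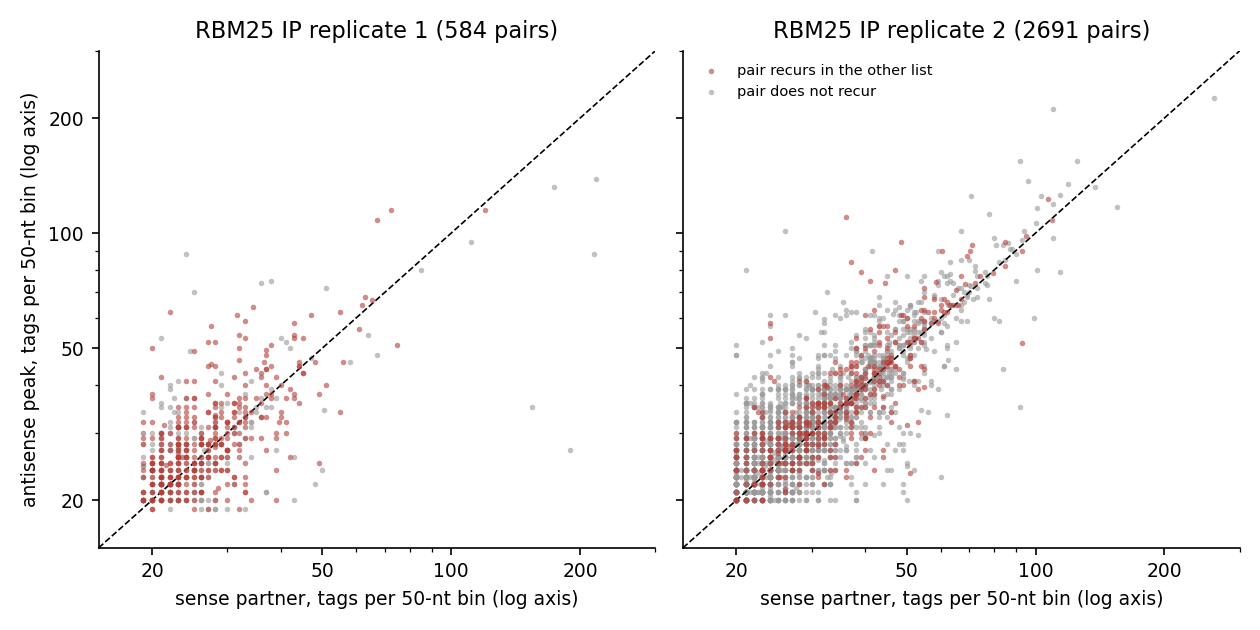
Tags per 50-nt bin of the antisense peak (vertical, log axis) against its sense partner (horizontal, log axis), 1 point for each of the 584 pairs of replicate 1 and the 2691 pairs of replicate 2; red points recur as a pair in the other list and the dashed line marks equal tags. Points gather along the line, with antisense shares of 40 to 60% in 518 pairs of replicate 1 and 2524 pairs of replicate 2.

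Most partners lay across exon-intron boundaries of coding genes. By the class that covers most of the partner, 329 of 584 pairs in replicate 1 had a partner in coding sequence (56.3%) and 203 in intron (34.8%), and of the 2691 pairs in replicate 2, 1703 had one in coding sequence (63.3%) and 830 in intron (30.8%). The 5' UTR took 25 and 90 pairs, noncoding exons 23 and 39, and the 3' UTR 4 and 29. These labels rest on the larger part of the bin. The partner held some coding sequence in 516 pairs of replicate 1 (88.4%) and 2463 pairs of replicate 2 (91.5%). Exon and intron together were held by 471 of the 584 partner peaks of replicate 1 (80.7%; 77.3 to 83.7), against 343 of the 616 sense peaks without an antisense peak opposite (55.7%; 51.7 to 59.6). In replicate 2 the counts were 2076 of 2682 partner peaks (77.4%; 75.8 to 78.9) and 691 of 1205 unpaired sense peaks (57.3%; 54.5 to 60.1). The intervals of paired and unpaired sense peaks did not overlap in either list; no test was run on this share. In boundary partners with coding sequence, the coding part covered a median fraction of 0.565 of the peak in replicate 1 and 0.6 in replicate 2. Pairs with a partner wholly in an intron were few, 14 in replicate 1 and 68 in replicate 2.

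Pairs recurred between the lists as pairs. Of the 584 pairs of replicate 1, 396 met a pair of replicate 2 on both strands (67.8%; 63.9 to 71.5), and these made up 14.7% of the pairs of the longer list (13.4 to 16.1). For single peaks, 61.0% of all replicate 1 peaks and 20.3% of all replicate 2 peaks met a peak of the same strand in the other list. Bins were identical on both strands in 338 of the 396 recurrent pairs. In the remaining pairs of replicate 1, the antisense peak alone recurred in 32, the sense partner alone in 47 and neither in 108; in 1 pair both recurred without forming a pair. In replicate 2, neither strand of 1846 pairs met a peak of replicate 1. Summed tags of recurrent pairs were higher in replicate 2 at 316 of 396 pairs. Library depth is unknown, so that count is not read as a change between lists. Pairs with a boundary partner recurred in 346 of 471 cases in replicate 1 (73.5%; 69.3 to 77.2), and pairs with a partner wholly in coding sequence in 29 of 62 (46.8%; 34.9 to 59.0). In replicate 2 the same shares were 16.7% (15.2 to 18.4) for boundary partners and 6.60% (4.61 to 9.38) for wholly coding partners. The intervals of boundary and wholly coding partners stood apart in each list, and this difference was not tested. Pairs with a partner mainly in the 5' UTR, which can also span a boundary, recurred in 19 of 25 cases in replicate 1 (76%). In replicate 2 they did in 20 of 90 (22.2%). For partners wholly in an intron the counts were 9 of 14 (64.3%; 38.8 to 83.7) and 9 of 68 (13.2%; 7.12 to 23.3). Cald1 held 4 of the 9 recurrent ones of replicate 1, within 1 stretch of intron, so these pairs are not independent. Counts this small do not show whether high recurrence is particular to boundary partners.

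Whether pairing goes with recurrence was then tested, since the list in which recurrence is read was not used to form the pairs. Among all antisense peaks, 60% in replicate 1 and 20.9% in replicate 2 met a peak of the same strand in the other list. In replicate 1, 428 of 583 paired antisense peaks recurred (73.4%; 69.7 to 76.8), against 406 of 807 unpaired ones (50.3%; 46.9 to 53.7). The difference was 23.1 percentage points and the odds ratio 2.73 (two-sided Fisher exact test over peaks, adjusted p = 4.16e-18 over the 2 lists). In replicate 2, 653 of 2685 paired antisense peaks recurred (24.3%; 22.7 to 26.0), against 180 of 1309 unpaired ones (13.8%; 12.0 to 15.7), a difference of 10.6 points with an odds ratio of 2.02 (Fisher exact adjusted p = 2.46e-15). Peaks of a list are not independent and both directions compare the same lists, so these tests describe the lists and not a condition. Paired peaks were also taller, with a median of 27 tags against 22 for unpaired antisense peaks in replicate 1 and 29 against 23 in replicate 2. Within classes of tags, where a Mantel-Haenszel test took the place of the exact test, the odds ratio was 2.47 in replicate 1 (over 1390 peaks, adjusted p = 2.73e-13) and 1.25 in replicate 2 (over 3994 peaks, adjusted p = 0.030). The classes rest on the tags of the antisense peak alone. A pair also needs a second strand at the lowest called height, and the part of that in recurrence was not tested.

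The tag classes show where this difference lay. The paired share of antisense peaks was 21.96% under 22 tags in replicate 1, 68.3% from 30 to under 40 tags and 58.8% at 60 tags and over, and in replicate 2 it was 38.0% under 22 tags and 89.3% at 60 tags and over. Tall antisense peaks without a partner were thus few in replicate 2, 20 of 187 peaks at 60 tags and over. In replicate 1, 80.5% of paired peaks with 25 to under 30 tags recurred, against 57.9% of unpaired ones. In replicate 2, 7.51% of paired peaks under 22 tags recurred, against 7.72% of unpaired ones, and the intervals overlapped in every class but the highest. In that class, 51 of 167 paired peaks of replicate 2 recurred (30.5%) and 1 of 20 unpaired ones (5%).

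**Figure D2:**
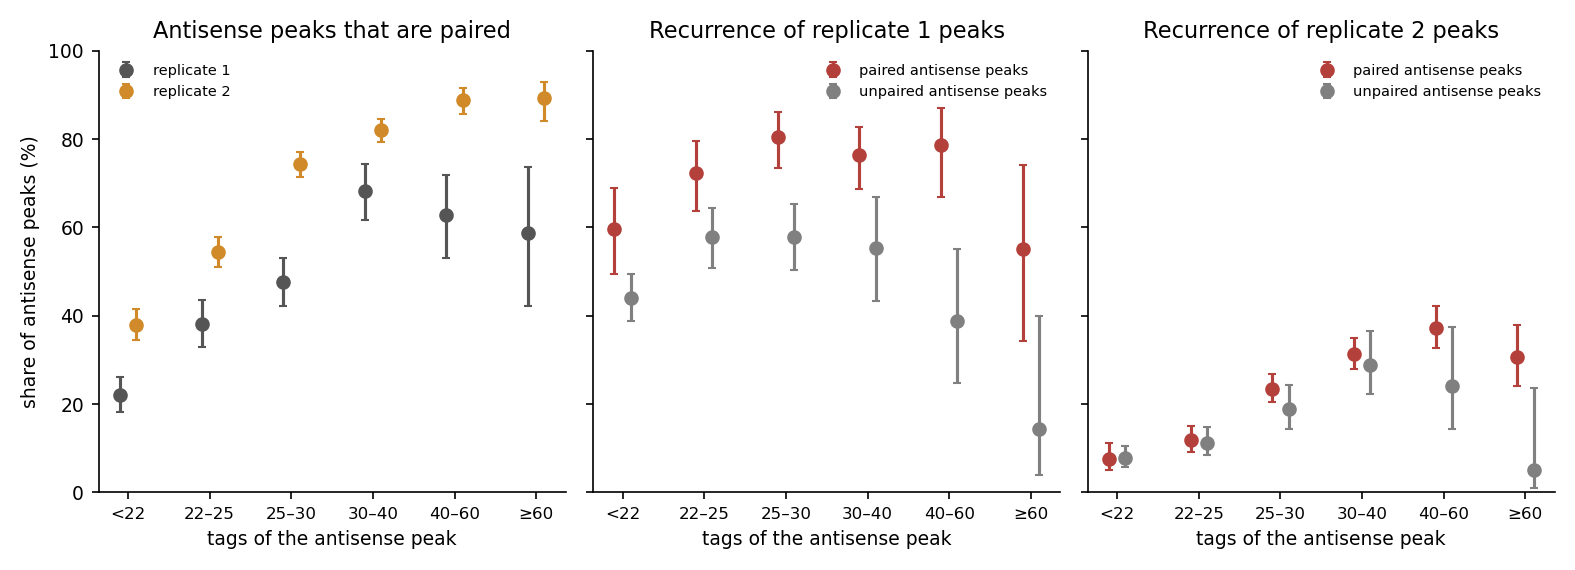
Share of antisense peaks (%) by tags of the antisense peak, with 95% Wilson intervals: left, the share that is paired in each list; middle and right, the share that recurs in the other list, for paired (red) and unpaired (grey) antisense peaks of replicate 1 and replicate 2. Paired peaks of replicate 1 stand above unpaired ones in every class, while in replicate 2 they are 7.51% and 7.72% under 22 tags.

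The strand lean of a pair was similar in the lists. Across the 396 recurrent pairs, Spearman's rho between the antisense shares of the lists was 0.535 and Pearson's r 0.552, a description over pairs that share genes and libraries. Of the 332 pairs with unequal strands in both lists, 173 had more antisense tags in both, 84 had more sense tags in both, and 75 leaned opposite ways. Of the 27 recurrent pairs with an antisense share of at least 60% in replicate 1, 24 were above 50% in replicate 2, with a median of 55.9%. Of the 40 at most 45% in replicate 1, 32 were below 50% in replicate 2, with a median of 47.1%. Over all 396 recurrent pairs the replicate 2 median was 50.9%, so most pairs were above 50% there before any choice by replicate 1.

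Among the 396 recurrent pairs, the highest mean antisense share lay in Slc12a4, a potassium-chloride cotransporter gene, at chromosome 19, 33860150 to 33860200 (mRatBN7.2, antisense peak on the plus strand). Its antisense peak had 50 tags in replicate 1 and 110 tags in replicate 2, against 20 and 36 for the sense partner, which was the longer peak in replicate 2. Next was Sh3gl1, which encodes endophilin A2, a membrane-bending protein of endocytosis. At chromosome 9, 850000 to 850050, its antisense peak had 62 and 79 tags, against 22 and 39 on the sense strand. In the helicase gene Ddx46, at chromosome 17, 8982450 to 8982500, the antisense peak had 64 and 84 tags and the sense partner, which extended further, 34.5 and 37. All 3 antisense peaks were the higher strand in both lists, which their choice by the mean share of the lists favours. The partners of the 3 recurrent pairs with the lowest antisense shares lay wholly or mostly in introns. Over all pairs, intron was the main class of 34.8% of partners in replicate 1 and 30.8% in replicate 2. These 3 pairs were picked by rank and show no general pattern. At chromosome 1, 164091000 to 164091050, an intronic Ipo7 peak had 49 and 44 tags in replicates 1 and 2, and the antisense peak opposite it had 25 and 27. In the kinase gene Taok2, at chromosome 1, 181485000 to 181485050, the antisense peak had 21 and 26 tags, against 33 and 44 for a partner that lay mostly in intron. The remaining pair, of the unnamed gene LOC120093706 on chromosome 7, had 24 and 32 antisense tags against 39 and 53 sense tags.

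**Figure D3:**
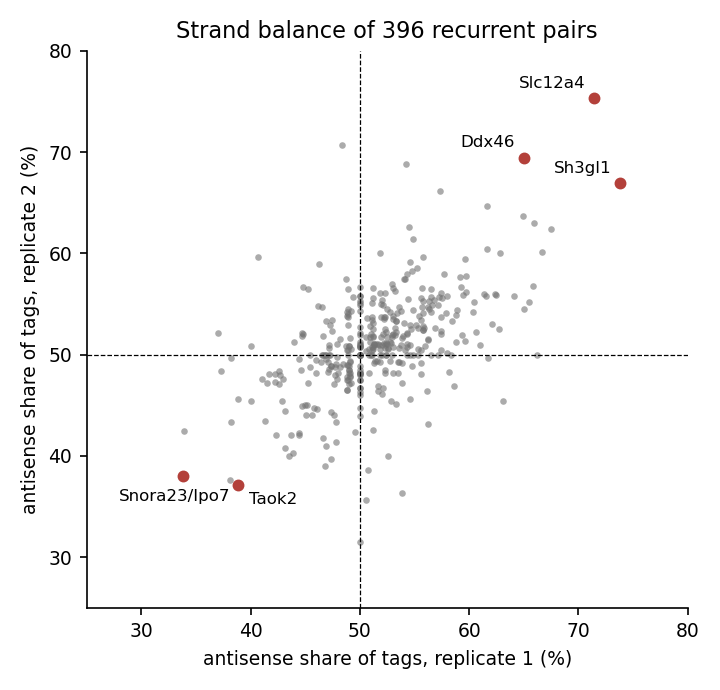
Antisense share of the tags of a pair in replicate 2 (vertical, %) against replicate 1 (horizontal, %), 1 point for each of the 396 recurrent pairs; dashed lines mark equal strands and red points the named pairs. Slc12a4, Sh3gl1 and Ddx46 lie above 60% in both lists, and the Taok2 pair and the pair of Snora23 and Ipo7 lie below 40% in both.

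The strongest recurrent pairs of 10 genes are described next, ranked by the summed tags of both strands. Cald1, the gene of the actin-binding protein caldesmon, held the strongest, inside an intron on chromosome 4. Its antisense peak, from 63296950 to 63297250 in replicate 1, had 114.8 tags in replicate 1 and 89.6 tags in replicate 2, against 120 and 93.2 for the sense partner. Cald1 had 5 pairs in replicate 1 and 8 in replicate 2, and the 4 that recurred lay within 1 stretch of intron, where most peaks ran over several bins and the strongest antisense peak met more than 1 partner. Akap8l, which encodes a nuclear protein of the A-kinase anchoring family, had 62 and 123 antisense tags against 55 and 107 sense tags at chromosome 7, 11347700 to 11347750. Coding sequence covered a fraction of 0.72 of that Akap8l partner and intron the rest. Npm1, the gene of a nucleolar chaperone, had 51 and 95 antisense tags against 38 and 48.5 sense tags. Its antisense strand was the higher in both lists, and in replicate 2 its partner was the longer peak.

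Taok2 had 61 and 62 antisense tags against 47 and 62 sense tags at its strongest pair. Setd5, a SET domain gene, had 58 and 65 antisense tags against 43 and 60 sense tags, and Fhod1, a formin gene, 45 and 65 against 44 and 64. At this Fhod1 pair the strands thus differed by 1 tag in each list. Ddx46 reached 44 and 98 antisense tags against 37 and 95 sense tags at a second pair, chromosome 17, 8977600 to 8977700 in replicate 1. Pnn, which encodes a nuclear speckle protein, had 34 and 65 antisense tags against 55 and 66 sense tags. At this Pnn pair the sense strand was the higher in both lists, in replicate 2 by 1 tag, and the replicate 1 antisense peak was the longer. At the recurrent Pnn pairs at 76759300 and 76763300 on chromosome 6, the antisense strand was the higher in both lists.

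**Figure D4:**
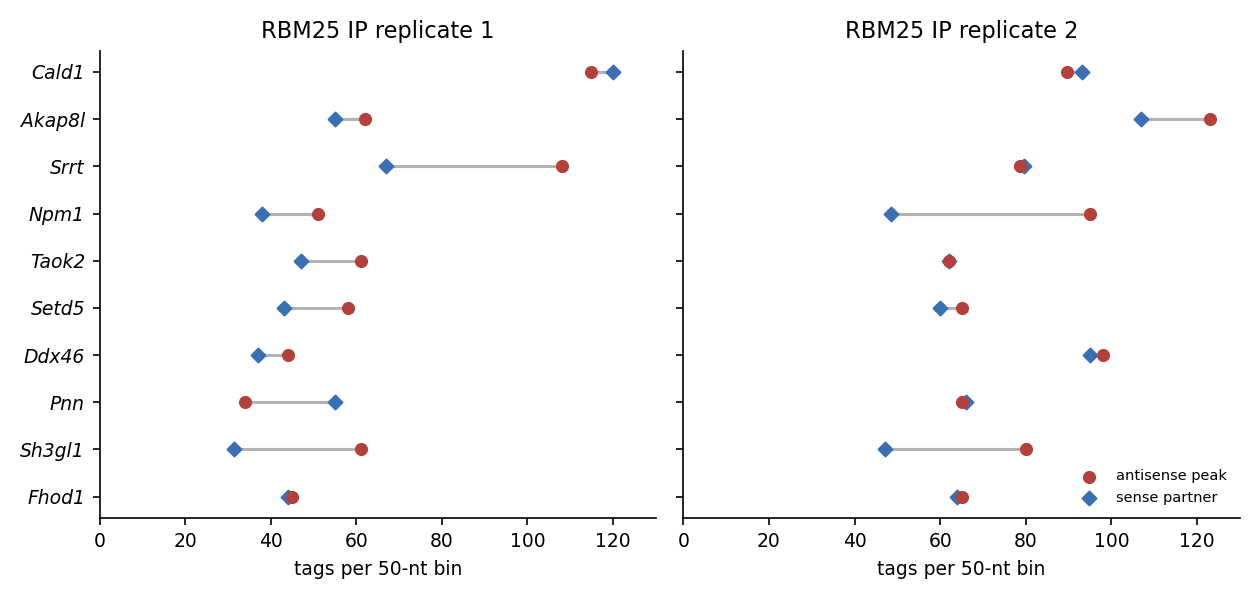
Tags per 50-nt bin of the antisense peak (red circles) and its sense partner (blue diamonds) at the strongest recurrent pair of 10 genes, in replicate 1 (left) and replicate 2 (right); each row is a gene. Cald1 is highest in replicate 1, with 114.8 antisense and 120 sense tags, and Akap8l in replicate 2, with 123 and 107.

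Several genes held a chain of recurrent pairs. Srrt, whose product joins the nuclear cap-binding complex, had 7 pairs in replicate 1 and 9 in replicate 2, of which 6 recurred. They lay on chromosome 12 between 19400550 and 19404750. The strongest Srrt pair began at 19400700, with 108 antisense tags against 67 sense tags in replicate 1 and 78.7 against 79.7 in replicate 2. At 19400900 the Srrt antisense peak had 68 and 73.5 tags in the lists, against 63 and 68.5 on the sense strand, and at 19401850 it had 59 and 87, against 33 and 69. At 19404700 the lean ran the other way in both lists, with 32 and 27 antisense tags against 41 and 40 sense tags. All 6 recurrent partners of Srrt in replicate 1 held coding sequence and intron.

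**Figure D5:**
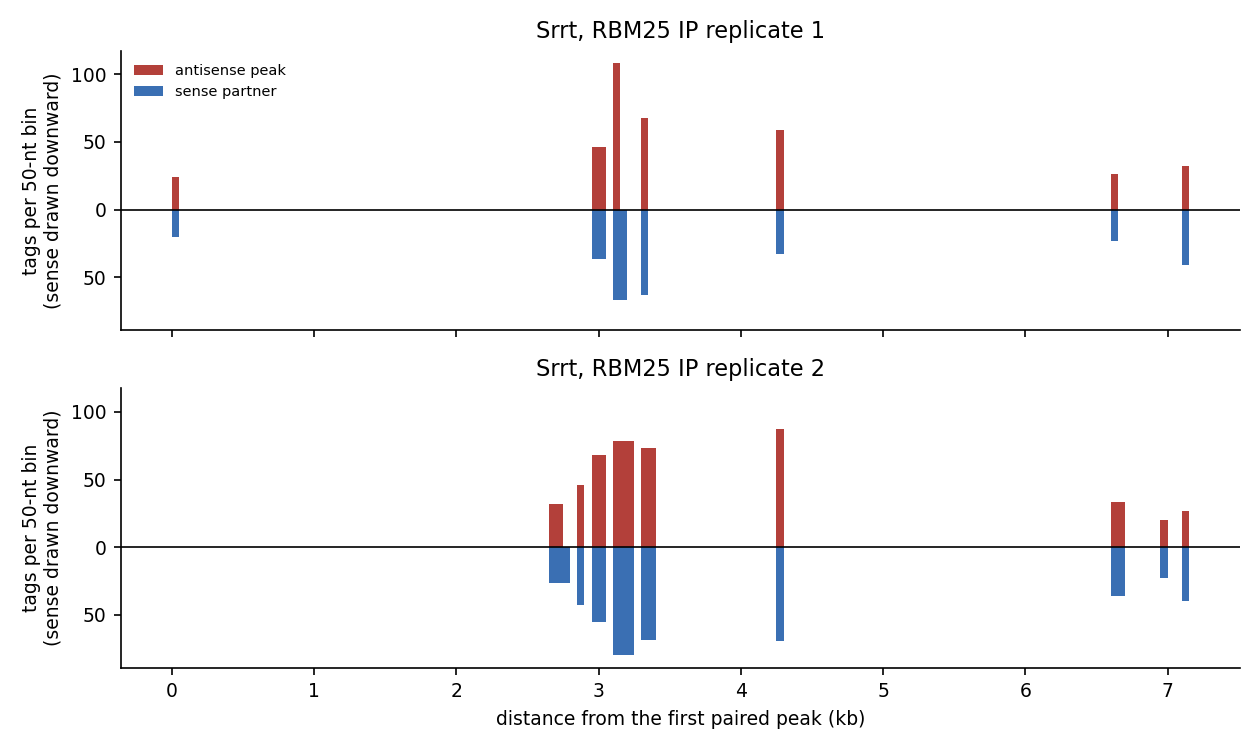
Pairs of Srrt along the gene in replicate 1 (top) and replicate 2 (bottom), with tags per 50-nt bin of the antisense peak drawn upward and of the sense partner drawn downward, against the distance from the first paired peak in kb; bar width is the extent of the peak. The 6 recurrent pairs stand at the same distances in both lists, and the highest bars are antisense, 108 tags in replicate 1 and 87 in replicate 2.

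Nexn, which encodes the actin-binding protein nexilin of striated muscle, also had 6 recurrent pairs, of 6 in replicate 1 and 11 in replicate 2. Its antisense peaks were low, 22 to 32 tags at the 6 pairs of replicate 1, and every one of these partners held coding sequence and intron. At the Nexn pair at chromosome 2, 241206100 to 241206150, the antisense peak had 32 tags in replicate 1 and 34 tags in replicate 2, against 24 and 34 on the sense strand. Smarcc2, a subunit gene of the BAF chromatin remodelling complex, had 5 recurrent pairs of 5 in replicate 1 and 12 in replicate 2. A Smarcc2 pair at chromosome 7, 904550 to 904600, had 116 antisense and 101 sense tags in replicate 2, and neither strand had a peak there in replicate 1. Ccdc9 had 5 recurrent pairs of 5 and 9. All pairs of replicate 1 recurred in Nexn, Smarcc2 and Ccdc9. These genes, like Srrt and Rbm25, were picked for having the most recurrent pairs. They also carried many peaks, 18 and 25 in Nexn, 13 and 26 in Smarcc2 and 16 and 24 in Ccdc9.

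Rbm25 itself carried 5 pairs in replicate 1 and 8 in replicate 2, and all 5 recurred. On chromosome 6 at 103301200 to 103301250, the Rbm25 antisense peak had 32 and 26 tags in the lists, against 30 and 30 on the sense strand. At 103305000 it had 33 and 52 tags, against 28 and 51, and at 103308850 25 and 29, against 25 and 23. The strongest Rbm25 pair, at 103311250, had 50 and 77 antisense tags against 32 and 74 sense tags, and the pair at 103309700 had 23 and 32.7 against 33 and 36. The strands of Rbm25 thus leaned in no common direction along the gene. Each recurrent Rbm25 partner spanned coding sequence and intron. The 3 pairs found in replicate 2 alone lay opposite partners wholly in coding sequence, and the antisense strand of each met a replicate 1 peak.

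Gene groups were then counted, beside all genes with a peak. Over all genes with a peak, 383 of 922 had a pair in replicate 1 (41.5%), 1187 of 1819 in replicate 2 (65.3%) and 267 of the 827 with a peak in both lists had a recurrent pair (32.3%). The lists were chosen with earlier results of these data known, and their counts are a description with no test. SR-related and nuclear speckle genes had a recurrent pair in 13 of 16 genes with a peak in both lists, 35 recurrent pairs in all. These genes also carried more peaks, a median of 6.5 in replicate 1 and 7 in replicate 2, against 2 and 3 over all genes, and its part in the count was not tested. Among them Srrm2, the gene of a speckle scaffold protein, had 42 and 62 antisense tags against 36 and 58 sense tags. U1 snRNP and LUC7-like genes had a recurrent pair in 3 of 4, namely Rbm25, Luc7l3 and Luc7l2, and carried medians of 8 and 16 peaks. Luc7l3, a U1-associated gene, had 46.5 and 93 antisense tags against 32 and 71 sense tags, and Luc7l2, a relative of it, 31 and 23.5 against 31 and 51.

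Other RNA-processing groups stood nearer to the share of all genes. SR protein genes had a recurrent pair in 2 of 7: Srsf11, with 42 and 55 antisense tags against 39 and 43 sense tags, and Srsf5, with 29 and 46 against 28 and 46. hnRNP and related genes had one in 5 of 14. Hnrnph1, a splicing regulator gene, had 29 and 32 antisense tags against 23 and 29 sense tags. RNA helicase genes had one in 3 of 9, Ddx46, Ddx17 and Ddx21. Ddx21, a nucleolar helicase gene, had 37 and 42 antisense tags against 20 and 24 sense tags, so the antisense strand was the higher in both lists. Among genes of U2 snRNP and the 3' splice site, 2 of 5 had one: Sf1, which encodes the branch point binding protein, and Rbm39, each with 3 recurrent pairs. Of the CLK and SRPK kinase genes, 1 of 2 had one, the SR protein kinase gene Srpk2, with 48 and 57 antisense tags against 37 and 44 sense tags. Other Rbm genes had one in 2 of 5, Rbm28 and Rbm5.

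Outside RNA processing, cytoskeleton and muscle genes had a recurrent pair in 13 of 21 genes and carried medians of 6 and 8.5 peaks. Tpm3, a tropomyosin gene, had 52 and 50 antisense tags against 27 and 38 sense tags. Dst, the gene of the linker protein dystonin, had 43 and 44 against 45 and 48, and Ahnak 30 and 58 against 32 and 24. Chromatin genes had one in 9 of 17 and carried medians of 3 and 4.5 peaks. Setd1a, a histone methyltransferase gene, had 35 and 58 antisense tags against 28 and 57 sense tags, and Baz2a 33 and 39 against 31 and 40. Matrix genes had one in 4 of 18. In replicate 2 a pair was found in 21 of their 22 genes with a peak, against 65.3% over all genes. Their median there was 7 peaks, against 3 over all genes, and its part in the count was not tested. Col16a1 was the matrix gene with 3 recurrent pairs, with 27 and 25 antisense tags against 30 and 38 sense tags at the strongest. Thbs1, Lamc1 and Col5a2 had 1 each.

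Groups of housekeeping genes were counted in the same way, with no test against all genes. Ribosomal protein genes had one in 3 of 14, with medians of 1 and 2 peaks per gene: Rpl35 with 24 and 46 antisense tags against 28 and 38 sense tags, Rpl24 with 26 and 38 against 21 and 38, and Rps3a with 29 and 30 against 20 and 22. Chaperone genes had one in 2 of 13, the endoplasmic reticulum chaperone genes Hsp90b1 and Hspa5. In replicate 2, 15 of the 17 chaperone genes with a peak had a pair, against 65.3% over all genes. Their median there was 6 peaks, against 3 over all genes, and its part in the count was not tested. Translation factor genes had a recurrent pair in 5 of 16, led by Eif3a. At its recurrent pair the sense strand was the higher in both lists, with 46 and 41 antisense tags against 56 and 52 sense tags. Replication and mitosis genes had one in 2 of 8, Incenp and Top2a. Immune genes had one in 0 of 3. Mitochondrially encoded genes had one in 1 of 3, the mitochondrial rRNA gene mt-Rnr2, with 23 and 30 antisense tags against 31 and 32 sense tags. Of the 17 myoblast and heart markers listed, 4 had a peak in either list and 1 a recurrent pair, the cardiac troponin T gene Tnnt2, with 20 and 24 antisense tags against 25 and 33 sense tags. Of 20 markers of other cell types, 2 had a peak and 1 a recurrent pair, the smooth muscle gene Smtn, with 38 and 67 antisense tags against 37 and 58 sense tags. Peak lists do not measure expression, so the identity of the cells was not assessed from them.

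Both peaks of a pair carried the same gene in 575 of 584 pairs of replicate 1 (98.5%) and in 2676 of 2691 pairs of replicate 2 (99.4%). The other 9 and 15 pairs named 2 genes, among them small nucleolar RNAs (snoRNAs), which guide the modification of ribosomal RNA and are often encoded in introns of other genes. A snoRNA was the gene of the antisense peak in 4 of these pairs in replicate 1 and 11 in replicate 2, from 12 snoRNA genes by the RefSeq name table, and its partner lay in an intron of another gene. Opposite an Rpl13a intron, the antisense peak of Snord33 at chromosome 1, 95610700 to 95610750, had 26 and 36 tags against 27 and 37 on the sense strand. The antisense peak in the Ipo7 intron described above was that of Snora23. An antisense peak of an unnamed snoRNA opposite an Hspa8 intron, at chromosome 8, 41186050 to 41186100, had 20 and 39 tags against 20 and 39 on the sense strand. Snord10 opposite Eif4a1, with 25 and 25 tags, was found in replicate 2, and Snord15b opposite Rps3, with 35 and 37, in replicate 1. The deposited annotation names a single gene for a peak, so a peak across a snoRNA and across the intron that holds it cannot be told apart here.

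Some strong pairs met no peak of either strand at their position in the other list. The strongest of replicate 1 lay in Col1a2, a fibrillar collagen gene, with 132 antisense tags against 174 sense tags at chromosome 4, 32576800 to 32576850. A pair on an unplaced sequence opposite Rn45s, the ribosomal RNA precursor, had 27 antisense tags against 189 sense tags, and Col1a1 80 against 85. The strongest of replicate 2 lay in Fmn1, a formin gene, in an intron at chromosome 3, 100356500 to 100356550. It had 211 antisense tags against 110 sense tags, the latter a mean over a longer peak. Anp32b followed with 154 against 125 and Ccdc9 with 117 against 155 at chromosome 1, 76981050 to 76981100. Pairs at ribosomal RNA, mitochondrial and unplaced loci were few, 16 in replicate 1 and 18 in replicate 2, and the lowest antisense share in replicate 1, 12.5%, was the Rn45s pair.

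Of the genes listed by name in the methods, Rbm25 and Cald1 are described above and the others held few pairs. Coro6, a coronin gene, had its recurrent pair at chromosome 10, 62318550 to 62318600, with 26 and 38 antisense tags against 29 and 38 sense tags, and 2 further pairs in replicate 2 with 20 and 24 antisense tags against 21 and 24. Bcl2l1, an apoptosis regulator gene, had 1 pair, with 27 antisense tags against 20 sense tags, and Bin1, a membrane-remodelling gene, had 1 with 25 against 26, both in replicate 2. Foxo1, a transcription factor gene, had 3 intronic pairs in replicate 2, with 60, 79 and 132 antisense tags against 80, 114 and 138 sense tags. The sense strand was the higher at all 3 Foxo1 pairs. Csf1 had an antisense peak in each list and no pair.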

How the data were processed

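RNA that came down with RBM25 in H9C2 cells was cross-linked, treated with DNase, digested with micrococcal nuclease and sequenced as stranded total RNA read pairs, per the labels' protocols. The submitters' processing notes name HISAT2 and mRatBN7.2; how peaks were called and whether inputs entered is not given in the sources used here. In each list, the authors' deposited tags column is a signal, whole in 51-nt peaks, and the deposited p-value per peak was used for a threshold alternative only. The lists were matched to IP samples by name. No depth is known.

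Pairs, strand shares and recurrence were computed from the positions in the lists. Intervals are 95% Wilson intervals, and those of medians come from order statistics. Recurrence of paired and unpaired antisense peaks was compared with Fisher's exact test (two-sided); p-values were adjusted over the 2 lists after Benjamini and Hochberg. Classes of tags were cut at 22, 25, 30, 40 and 60 tags, set after seeing the data. Of 1914 gene identifiers, 1860 matched the RefSeq name table (GRCr8, used for names and gene types alone) by symbol or gene ID. Ribosomal RNA loci were unplaced sequences and peaks within 50 kb of a ribosomal RNA gene peak. The pair finder was tested on simulated data.

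The members, the 19 gene lists (543 entries), the tests and the rule for named genes were chosen with earlier results of these data known. The rule took the 10 genes with the best recurrent pair by mean rank of summed tags, the 5 with the most recurrent pairs, up to 4 members per list, the 3 most uneven pairs each way, the 3 strongest pairs without overlap in each list, 7 genes listed by name (Rbm25, Cald1, Coro6, Foxo1, Bcl2l1, Bin1 and Csf1) and 3 genes whose partner carries another name. Not all members that the rule names are printed, and a gene that it names is not reported here; further snoRNA pairs were chosen after their values were seen. Sequence of the regions was not analysed here. Tables were handled with pandas 2.3.3 and numpy 2.4.6 under Python 3.11.15, tests run with scipy 1.17.1 and statsmodels 0.14.6, and plots drawn with matplotlib 3.10.9.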

Additional observations from a re-analysis of the deposited data

How the results depend on the processing

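The comparison of paired with unpaired antisense peaks kept its direction and stayed past the threshold in every alternative run, with odds ratios of 2.08 to 2.90 in replicate 1 and 1.25 to 2.03 in replicate 2; its lowest replicate 2 values were 1.25 within classes of tags and 1.39 with the better part of the lists (Fisher exact adjusted p = 0.0058). Of 50 alternatives over all results, 31 stayed within the interval of the value or on the same side of the threshold, 19 moved and 0 reversed.

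The paired share of antisense peaks was 38.7% in replicate 1 and 61.5% in replicate 2 with the part of each list that had the better deposited p-values (the better part), 38.7% and 62.4% with identical ends, and 48.3% and 70.8% with opposite peaks within 50 nt; with 1-bin peaks alone it was 63.8% in replicate 2. All antisense annotations covered the whole peak, so other definitions of antisense changed nothing. The median antisense share of tags was 53.5% and 51.8% in pairs whose stronger strand had at least 2 times the lowest tags, and 50.9% in replicate 2 with the better part. In replicate 1 it was 51.9% on the plus strand and 50% on the minus strand, a split chosen after seeing the data, as were the limit of 60 tags and the use of 1-bin partners. Recurrence of pairs was 57.4% and 12.3% with the better part, 57.9% and 12.6% with identical bins, and 62.1% in replicate 1 with 1-bin peaks. Coding sequence at any overlap was 88.4% and 91.5% of partners. The causes were not tested.

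With 1 list left out, the paired share was 41.9% to 67.2% (mean of the lists 54.6%) and the median antisense share 51.1% to 51.2%. Coding partners were 56.3% to 63.3% and boundary partners 77.4% to 80.7%. Recurrence, 14.7% to 67.8%, and the odds ratio, 2.02 to 2.73, were taken from the side of each list but still read both. The paired share therefore differed between the lists by more than 1.5 times. Recurrence counts the same 396 pairs over 584 or 2691 pairs, so its range follows from the numbers of pairs. No paired analysis was possible because the inputs were not analysed here, so no groups that share replicate numbers were compared. Unknown depth limits how far list length can be read, and a strand under the lowest called tags leaves no pair.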
